A study of Mus musculus with 4 samples.

Results

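Neuroblasts of the lateral ganglionic eminence (LGE) that held RNA of Pax6 or Sp8 were examined in single-cell RNA-seq of the wild-type (genotype wt) mouse forebrain at embryonic day E12.5. The cells were picked from the LGE count table by their own counts: more than 1500 and fewer than 4500 genes, mitochondrial (mt-) unique molecular identifiers (UMIs, each marking 1 captured mRNA) under 5%, beta-globin (Hbb-) UMIs under 1%, ln(1 + UMIs per 10000) of Dcx above 1.5, at least 1 UMI of Pax6 or Sp8, at least 1 UMI of Gad2, Dlx2 or Dlx5, and 0 UMIs of Ebf1, Six3 and Lhx6. This gate held 283 of the 2198 LGE cells above the Dcx limit (12.9%, exact 95% Clopper-Pearson interval 11.5 to 14.3) and 5.88% of the 4810 LGE cells that passed the quality limits. Among the 16544 cells kept from all 4 libraries, the same gate found 426 further cells in the caudal ganglionic eminence (CGE), 12 in the medial ganglionic eminence (MGE) and 2 in the cortex (CTX).

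Each region had 1 library, made from C57BL/6 mice of pooled sexes with tissue of more than 4 embryos combined, so no difference between cells or regions has a replicate check and no test is given. Levels are the UMIs of a gene per 1000000 UMIs of a group of cells (CPM), with exact 95% Poisson intervals. Ratios of levels carry exact conditional binomial intervals. These intervals, and those of shares, cover counting error only. The neuroblasts had a median of 6663 UMIs and 2783 genes per cell. They were set beside the 1915 other LGE cells above the Dcx limit (median 6441 UMIs) and, among those, beside the 302 cells that passed the same gate but held no UMI of Pax6 or Sp8 (median 5960.5 UMIs), called the Pax6/Sp8-negative cells here. The 4 libraries held 31451467 to 49794765 UMIs in 4301 to 6953 barcodes. Of the barcodes of the 283 cells, 2 also occurred in the MGE library and 0 in the CTX and CGE libraries.

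The LGE is the embryonic swelling that gives rise to striatal projection neurons and, from its dorsal part, to interneurons of the olfactory bulb and to intercalated cells of the amygdala. Its newborn neurons leave the ventricular zone (VZ), pass through a dividing subventricular zone and switch on Dcx, a microtubule-binding protein of migrating neurons. Pax6 (a paired-homeodomain factor) and Sp8 (a zinc finger factor) are markers of its dorsal part, while Ebf1 and Six3 mark the 2 striatal lineages and Lhx6 marks cells born in the MGE. Dissociated cells carry no position, so the place of these cells within the LGE was not measured.

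Of Pax6 and Sp8, Sp8 was the more widely detected. It was found in 239 of the 283 cells with 552 UMIs in all and at most 10 in a cell. Pax6 was found in 137 cells with 334 UMIs, and 1 cell held 23 of them. In all, 44 cells held Pax6 alone, 146 held Sp8 alone and 93 held both (32.9%, interval 27.4 to 38.7). The plot of cells by Pax6 and Sp8 UMIs shows how thin these counts were: 101 of the cells (35.7%) qualified through exactly 1 UMI. In barcodes with more than 50% globin UMIs, which should lack both genes, 2 of 59 LGE barcodes held a UMI of Pax6 or Sp8 (3.39%, interval 0.413 to 11.7), at a median of 1248 non-globin UMIs. The same barcodes held Meis2 in 18.6% and Gad2 in 10.2%, and Etv1 and Tshz1 in 0 of 59, which allows a share of up to 5.08% (3 counts of 59).

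**Figure D1:**
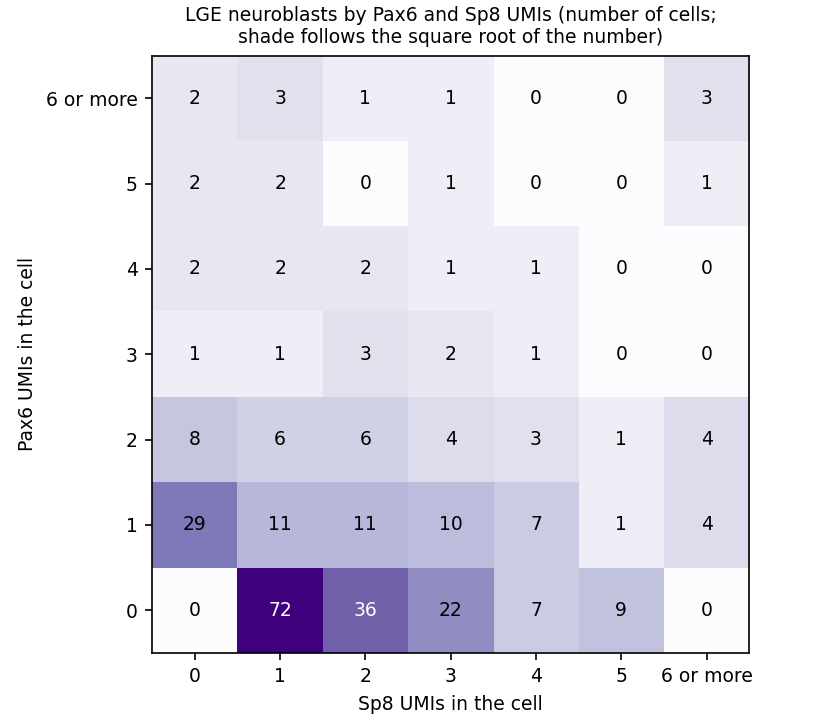
Number of LGE neuroblasts by Sp8 UMIs (x axis) and Pax6 UMIs (y axis) in the cell, with 6 or more UMIs in 1 bin; the 283 cells lie on every square with a number above 0. The fullest squares are 1 Sp8 UMI without Pax6 (72 cells) and 2 Sp8 UMIs without Pax6 (36 cells).

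Most LGE cells with Dcx and Pax6 or Sp8 were left out by the rule through Six3. Of 2198 cells above the Dcx limit, 717 held Pax6 or Sp8, 7 of these lacked Gad2, Dlx2 and Dlx5, and 427 of the remaining 710 (60.1%) were excluded by Ebf1, Six3 or Lhx6. Six3 was present in 388 of the 710, Ebf1 in 49 and Lhx6 in 13, and 366 were excluded by Six3 without Ebf1 and Lhx6. Those 366 cells are described beside the neuroblasts where they differ. The Dcx limit cut through a continuous range: the lowest member had a Dcx value of 1.504 and the nearest cell below the limit 1.497, with 26 cells up to 0.1 above the limit and 33 up to 0.1 below it.

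Of the 3 dorsal LGE markers that the rule did not use, Etv1 and Tshz1 were higher in the neuroblasts than in the other high-Dcx cells and Meis2 was not. Etv1 is an ETS-family transcription factor of olfactory bulb interneurons and several projection neurons. It stood at 177 CPM (159 to 196) in the neuroblasts, 34.9 CPM in the other high-Dcx cells and 25.8 CPM in the Pax6/Sp8-negative cells. The level was thus 5.07-fold higher (4.41 to 5.82) than in the other high-Dcx cells and 6.86-fold higher (5.05 to 9.50) than in the Pax6/Sp8-negative cells. With every cell thinned to 3000 UMIs, which left out 3 neuroblasts and 10 negative cells, Etv1 was found in 36.4% (30.8 to 42.4) of the neuroblasts and 6.16% (3.69 to 9.57) of the negative cells, against 54.1% and 10.3% before thinning. The signal was spread over 153 cells, and the highest cell gave 2.45% of the UMIs.

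Tshz1, a zinc finger factor needed in dorsal LGE derivatives, stood at 272.5 CPM in the neuroblasts, 108 CPM in the other high-Dcx cells and 65.9 CPM in the Pax6/Sp8-negative cells, which makes it 2.52-fold (2.28 to 2.78) and 4.13-fold (3.39 to 5.08) higher. After thinning it was found in 34.6% (29.1 to 40.5) of the neuroblasts and 8.90% (5.90 to 12.8) of the negative cells. Meis2, a TALE-class homeodomain factor, was found in 99.3% of the neuroblasts and 87.1% of the negative cells. Its level was lower in the neuroblasts, with 2180 CPM against 2749 CPM in the other high-Dcx cells (ratio 0.793, 0.769 to 0.818) and 2772 CPM in the negative cells (ratio 0.786, 0.755 to 0.819). Meis2 was thus found in more of the neuroblasts but at a lower summed level.

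Etv1 (ENSMUSG00000004151.12) lies on the forward strand of chromosome 12 at 38779380 to 38870484, and Isl1 (ENSMUSG00000042258.9), a striatal factor, on the reverse strand of chromosome 13 at 116298281 to 116309689 (GENCODE positions by gene ID, GRCm38). Their RefSeq promoter windows, 250 bases before to 50 bases after a transcription start (GRCm38.p6), are printed 5′ to 3′ because Etv1 was high and Isl1 low in these cells, together with that of Prc1, a spindle midzone protein among the genes highest in the neuroblasts. Capitals mark matches, on either strand, to TAATTA (a homeodomain core, held by 5.29% of 32851 promoter windows), GGGCGG (GC box, 35.7%), TTTGAA (cell cycle homology region, 17.9%) and CCAAT (37.4%), and no match overlapped another. The windows lie at chr12:38779832-38780131 and chr12:38783461-38783760 (both forward strand) for Etv1, chr13:116309639-116309938 (reverse strand) for Isl1 and chr7:80294201-80294500 (forward strand) for Prc1. The Prc1 window held 2 GC boxes, 1 TTTGAA and 1 CCAAT, the Isl1 window held 2 CCAAT matches, and the Etv1 windows held 0 of the 4 motifs. Counts from the 3′ ends of transcripts do not tell which Etv1 start was used.
Etv1, first start: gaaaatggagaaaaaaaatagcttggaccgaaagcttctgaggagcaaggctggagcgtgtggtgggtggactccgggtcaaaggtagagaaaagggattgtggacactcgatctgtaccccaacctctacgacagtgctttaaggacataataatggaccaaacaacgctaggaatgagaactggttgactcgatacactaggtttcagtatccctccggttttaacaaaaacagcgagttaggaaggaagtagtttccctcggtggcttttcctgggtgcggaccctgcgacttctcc
Etv1, second start: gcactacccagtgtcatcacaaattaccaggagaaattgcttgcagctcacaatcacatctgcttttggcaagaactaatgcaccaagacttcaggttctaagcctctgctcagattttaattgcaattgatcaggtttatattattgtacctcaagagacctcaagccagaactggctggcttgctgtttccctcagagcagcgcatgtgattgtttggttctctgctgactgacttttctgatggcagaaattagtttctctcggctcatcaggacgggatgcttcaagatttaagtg
Isl1: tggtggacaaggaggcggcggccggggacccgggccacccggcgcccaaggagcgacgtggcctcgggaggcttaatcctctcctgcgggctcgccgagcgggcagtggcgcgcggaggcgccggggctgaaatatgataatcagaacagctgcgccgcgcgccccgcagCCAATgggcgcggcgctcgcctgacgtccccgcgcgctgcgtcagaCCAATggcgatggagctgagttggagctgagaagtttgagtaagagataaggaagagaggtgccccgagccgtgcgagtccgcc
Prc1: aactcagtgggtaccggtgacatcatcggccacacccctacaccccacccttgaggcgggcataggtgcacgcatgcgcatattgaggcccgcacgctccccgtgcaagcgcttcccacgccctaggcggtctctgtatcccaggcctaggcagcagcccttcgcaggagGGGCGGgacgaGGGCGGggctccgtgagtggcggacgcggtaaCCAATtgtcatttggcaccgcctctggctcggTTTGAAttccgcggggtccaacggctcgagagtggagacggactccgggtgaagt

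Among 6809 genes of at least 20 CPM in the neuroblasts or the other high-Dcx cells, with the 9 genes of the rule left out and folds taken as the ratio of CPM, 94 were at least 2-fold higher in the neuroblasts (1.38%) and 239 at least 2-fold lower (3.51%). Against the Pax6/Sp8-negative cells, 284 of 6802 genes were at least 2-fold higher (4.18%) and 222 at least 2-fold lower (3.26%). The median log2 ratio of all tested genes, taken as log2 of CPM + 1, was -0.01 in the first and -0.03 in the second comparison. Of the 24 listed factors of the dorsal LGE and of olfactory interneurons, 14 reached 20 CPM, and 2 were at least 2-fold higher and 1 lower in either comparison, with a median log2 ratio of 0.47 against the other high-Dcx cells and 0.60 against the negative cells. The higher ones were Vax1, a homeodomain factor of the ventral forebrain, and Sall1, a zinc finger factor. Vax1 stood at 57.4 CPM against 18.7 CPM in the negative cells (3.07-fold, 2.08 to 4.64) and Sall1 at 57.4 CPM against 13.7 CPM (4.18-fold, 2.70 to 6.72). The lower one was Tshz2, the paralog of Tshz1, at 47.3 CPM against 221 CPM (ratio 0.214, 0.170 to 0.268). In cells with neither Mki67 nor Ccnd2, a class described further on, Tshz2 was instead higher than in the other high-Dcx cells (log2 ratio 0.76).

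The remaining factors of that list lay between those limits. Sp9, the paralog of Sp8, stood at 719 CPM against 431 CPM in the negative cells (1.67-fold, 1.53 to 1.82). Foxp2, a forkhead factor of striatal and intercalated neurons, stood at 252 CPM against 142 CPM (1.77-fold, 1.52 to 2.07), but did not differ from the other high-Dcx cells beyond counting error (241 CPM, ratio 1.05, 0.951 to 1.15). Among the 6 genes listed for intercalated amygdala cells only Foxp2 and Tshz2 reached 20 CPM, and the 4 others did not.

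The 10 genes highest against the other high-Dcx cells were led by Etv1 and held Tshz1 and Tox3 as well. Tox3, an HMG-box protein, was found in 80.6% of the neuroblasts and 41.4% of the others, at 538 against 207 CPM (2.60-fold, 2.42 to 2.79). Tiam2, an exchange factor of Rac, stood at 141 against 47.3 CPM (2.99-fold, 2.59 to 3.44), and Atp1b1, a sodium pump subunit, at 85.4 against 28.7 CPM (2.98-fold, 2.48 to 3.57). Lix1 was 3.10-fold (2.45 to 3.90) and Arrdc4 3.04-fold (2.41 to 3.81) higher, Nab1 stood at 98.4 against 32.8 CPM, and the replication genes Mcm2 and Mcm3 were 2.49-fold and 2.58-fold higher. Against the negative cells Tox3 was 3.41-fold higher (538 against 158 CPM), Tiam2 3.78-fold (2.90 to 5.00) and Arrdc4 5.56-fold (3.36 to 9.72) higher, so these 3 genes were above both groups.

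Several striatal genes were lower in the neuroblasts. Of 14 genes listed for the direct pathway (striatonigral neurons), 8 reached 20 CPM in the comparison with the other high-Dcx cells and all 8 were at least 2-fold lower in the neuroblasts. Tac1, Rarb, Mef2c and Sox8 were under 20 CPM in the neuroblasts. They entered through the reference of other high-Dcx cells and could not be called higher. That reference still held the Ebf1 cells, which the rule removed from the neuroblasts. Against the Pax6/Sp8-negative cells, which lacked Ebf1 by the same rule, 4 of 5 were at least 2-fold lower, with a median log2 ratio of -2.32. Mef2c again entered only through the reference. Isl1, a LIM-homeodomain factor of striatonigral neurons, stood at 56.9 CPM (47.1 to 68.1) in the neuroblasts and 515 CPM in the negative cells (9.04-fold lower, ratio 0.111, 0.0905 to 0.134). Zfp503, a zinc finger factor of striatal neurons, stood at 43.4 CPM against 384 CPM (8.85-fold lower). The negative cells were a mixture in this respect, since Isl1 was found in 46.9% of them after thinning and Zfp503 in 49.3%, against 7.86% and 8.57% of the neuroblasts.

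Bcl11b, a zinc finger factor of medium spiny neurons, was found in 91.2% of the neuroblasts and stood at 503 CPM against 1094 CPM in the negative cells (ratio 0.460, 0.427 to 0.496). Mef2c, a MADS-box factor, stood at 18.3 CPM against 95.6 CPM (ratio 0.192, 0.131 to 0.274). Foxp1 was lower than in the other high-Dcx cells (124 against 381 CPM, ratio 0.325, 0.286 to 0.369) and close to its level in the negative cells (133 CPM, ratio 0.932, 0.779 to 1.12). Of the 7 measured genes listed for the indirect pathway (Gpr52 was not matched), Sp9 and Grik3 reached 20 CPM, neither passed 2-fold, and Grik3, a kainate receptor subunit, stood at 80.5 against 85.7 CPM (ratio 0.940, 0.751 to 1.18).

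The 4 lowest genes against the negative cells were those of MGE-type interneurons. Of 14 listed MGE genes, 10 reached 20 CPM in either group of this comparison and 7 were at least 2-fold lower (median log2 ratio -2.76). Sst, Npy, Maf and Nxph1 were under 20 CPM in the neuroblasts. They entered through the negative cells and could not be called higher, so the count and the median were partly set by the floor. Sst and Npy encode neuropeptides, Maf a bZIP factor and Nxph1 a neurexin ligand of interneurons. Sst stood at 1.93 CPM (4 UMIs in 3 cells) against 206 CPM (ratio 0.00936, 0.00254 to 0.0242), and Npy at 0.964 CPM (2 UMIs) against 114 CPM (ratio 0.00848, 0.00102 to 0.0310). Maf stood at 2.41 CPM against 96.7 CPM and Nxph1 at 1.93 CPM against 81.3 CPM. These genes came from a minority of the negative cells: Sst was found in 21 of 302 and 1 cell gave 22.7% of its UMIs, Npy in 37, Maf in 47 and Nxph1 in 41. Zeb2, a zinc finger homeobox factor on the same list, was higher in the neuroblasts (589 against 386 CPM, 1.53-fold, 1.39 to 1.68).

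The other genes low in the neuroblasts included Aldh1a3, Pou3f1 and Epha5. Aldh1a3, which makes retinoic acid, stood at 16.9 CPM against 241 CPM in the negative cells (14.3-fold lower, ratio 0.0702, 0.0482 to 0.0991). Pou3f1, a class III POU factor, stood at 116 CPM against 1160 CPM (9.98-fold lower, 8.73 to 11.5), and it was the only one of 7 SoxC and class III POU genes past 2-fold. Epha5, an ephrin receptor, stood at 97.9 CPM against 549 CPM (ratio 0.178, 0.152 to 0.207), and of 17 migration and adhesion genes above 20 CPM it was lower by at least 2-fold together with Nrg1 (24.6 against 51.1 CPM) and Nrp1 (18.3 against 37.4 CPM), with none higher. Among 6 retinoic acid genes above 20 CPM in either group, Aldh1a3 and the receptor Rxrg (4.82 against 26.9 CPM) were at least 2-fold lower. Both passed that floor only in the negative cells. Rprm, a cell-cycle inhibitor gene, and Dlgap1, a postsynaptic scaffold gene, completed the 10 lowest genes, with ratios of 0.155 (0.102 to 0.227) and 0.153 (0.0946 to 0.237).

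**Figure D2:**
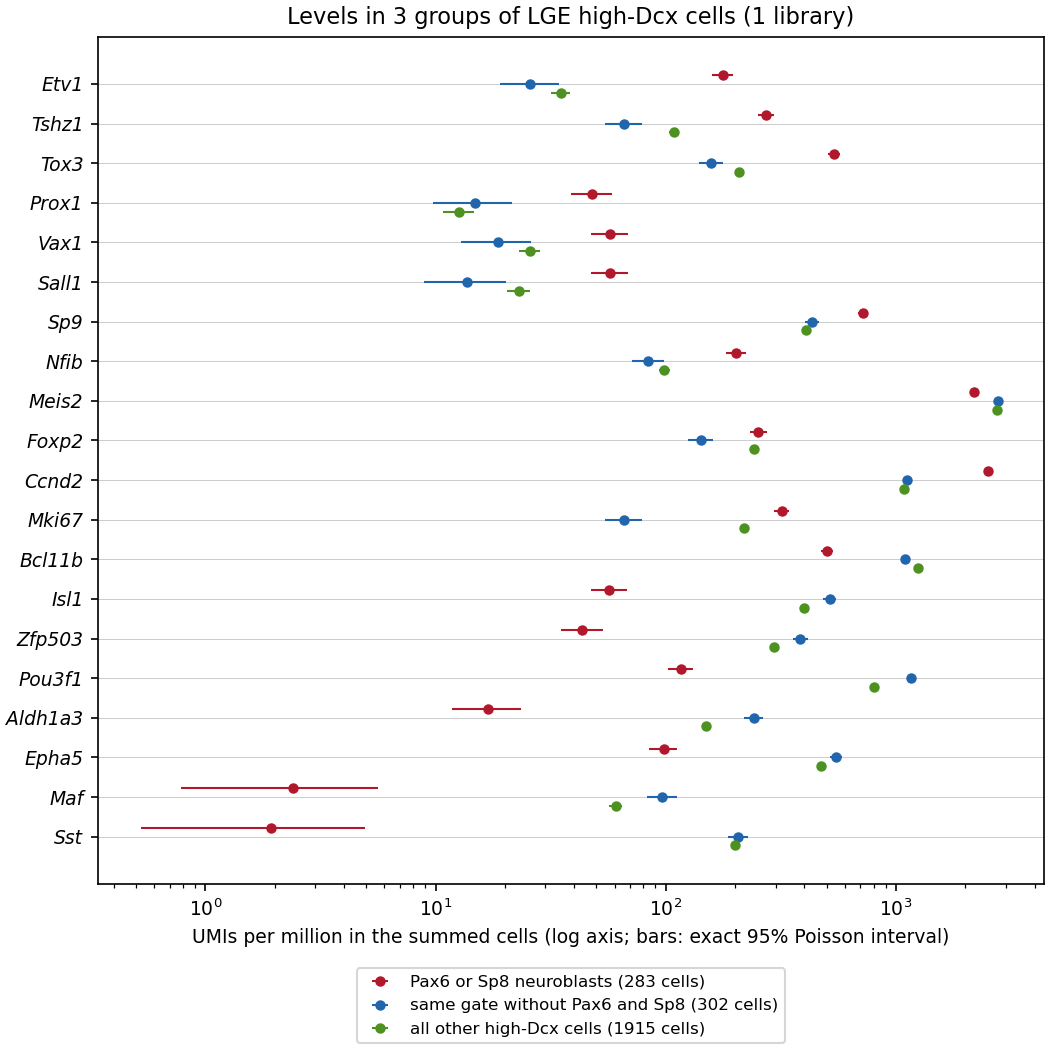
Level of 20 genes (CPM, log axis) in the Pax6 or Sp8 neuroblasts (283 cells), the Pax6/Sp8-negative cells of the same gate (302 cells) and all other high-Dcx cells (1915 cells) of the LGE library, with exact 95% Poisson intervals. Etv1 and Tshz1 lie higher in the neuroblasts (177 and 272.5 CPM), and Isl1, Zfp503, Pou3f1, Aldh1a3, Maf and Sst lie lower than in both other groups.

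Of 13 listed genes of CGE interneurons, 4 reached 20 CPM in either comparison, which were Prox1, Nfib, Nr2f1 and Npas3. Prox1 and Nfib, a nuclear factor I gene, were at least 2-fold higher in the neuroblasts in both comparisons and none was at least 2-fold lower. Prox1, a homeodomain factor, stood at 47.7 CPM in 24.7% of the neuroblasts against 14.8 CPM in the negative cells (3.22-fold, 2.09 to 5.13), and Nfib at 202 against 84.0 CPM (2.40-fold, 1.99 to 2.91). Within the Mki67 class described further on, Prox1 passed 2-fold and Nfib did not, and within the Ccnd2 class both did. After thinning, Nfib was found in 40.4% of the neuroblasts and 58.4% of LGE cells with Nes, a VZ marker, above 1.5 on the ln scale. Prox1 was found in 14.3% and 1.86% of them. Nr2f2, a COUP-TF orphan receptor of the CGE, gave 1 UMI in all 283 cells, and Nr2f1, its paralog, stood at 42.9 CPM against 84.6 CPM (ratio 0.507, 0.386 to 0.663). Synpr, a synaptic vesicle protein of the same list, was under 20 CPM, at 17.8 CPM against 1.10 CPM (37 against 2 UMIs), with 32.4% of its UMIs from 1 cell.

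GABA genes did not set the cells apart from the negative cells, and both groups held Gad2, Dlx2 or Dlx5 by the rule. The 4 listed genes of GABA synthesis and transport all lay within 2-fold of the negative cells, with Gad1 at 97.9 against 111 CPM (ratio 0.882, 0.723 to 1.08) and Slc32a1, the vesicular transporter, at 172 against 199 CPM (ratio 0.863, 0.744 to 1.00). Of the 7 Meis and Pbx genes, Meis3 passed 2-fold (49.7 against 100.0 CPM, ratio 0.497, 0.386 to 0.636), while Meis1 was slightly higher (1.43-fold, 1.21 to 1.70). Pallial glutamatergic genes were nearly absent: 11 of 18 had 0 UMIs, including Neurod2 and Neurod6, and the 1 that reached 20 CPM was Lhx2 (51.1 against 30.2 CPM). In the negative cells 14 of the 18 had 0 UMIs. The 18 genes summed to 70.9 CPM in the neuroblasts, 41.2 CPM in the negative cells and 104 CPM in the other high-Dcx cells. Markers of other tissues were at or near 0 in the neuroblasts, with 6 UMIs over 5 endothelial genes, 2 over 6 mesenchymal genes, 0 over 6 microglial genes and 7 over 5 Cajal-Retzius genes. Red blood cell genes summed to 71.9 CPM in the neuroblasts, 78.9 CPM in the other high-Dcx cells and 95.6 CPM in the negative cells.

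More of the neuroblasts carried RNA of dividing cells. Mki67, a marker of the active cell cycle, was above 0.5 on the ln scale in 128 of 283 neuroblasts (45.2%, 39.3 to 51.2), 26.1% (24.2 to 28.1) of the other high-Dcx cells and 14.2% (10.5 to 18.7) of the Pax6/Sp8-negative cells. After thinning to 3000 UMIs the shares were 31.8%, 21.3% and 9.25%. In the neuroblasts and the negative cells this limit meant 1 UMI or more. Exactly 1 UMI was held by 27 of the 128 neuroblasts and 17 of the 43 negative cells above it. Of 16 progenitor and cell cycle genes above 20 CPM, 6 were at least 2-fold higher than in the negative cells and none lower, with a median log2 ratio of 0.89.

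Of the 10 genes highest against the negative cells, most encode parts of the mitotic machinery. The transcription factor Etv1 was also one of the 10. Prc1 stood at 297 CPM against 35.7 CPM (8.31-fold, 6.43 to 10.9), and Nusap1, a spindle protein, at 240 against 29.1 CPM (8.23-fold, 6.19 to 11.1). Ckap2 (9.50-fold, 5.12 to 19.5) and Aurkb, a mitotic kinase (8.67-fold, 5.74 to 13.7), were among them as well, with Tuba1c, Sapcd2, Kif18a and Ttk at 7.09-fold to 9.22-fold. Ccnd2, a D-type cyclin, stood at 2509 CPM against 1121 CPM (2.24-fold, 2.13 to 2.36). The share of dividing cells differed between the groups as well, and its part in these levels was not tested. Values within classes of cells are given next.

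The classes were cells with Mki67 (128 neuroblasts, 43 negative cells), cells with Ccnd2 but no Mki67 (115 and 151), and cells with neither (40 and 108). The Mki67 class was set by detection, so its neuroblasts and negative cells were not matched in Mki67 level. Within the Mki67 class, 356 genes of 6806 (5.23%) were at least 2-fold higher and 420 (6.17%) at least 2-fold lower in the neuroblasts. Within the Ccnd2 class these were 181 (2.72%) and 182 (2.73%) of 6657. The sums of neuroblasts and negative cells rested on 1112875 and 308629 UMIs in the Mki67 class and 741671 and 902047 in the Ccnd2 class. Smaller sums carry more counting error, so these shares cannot be ranked between classes or against the whole comparison. Etv1 was higher in the neuroblasts in each class, at 184 against 45.4 CPM (4.06-fold, 2.37 to 7.56), 196 against 27.7 CPM (7.05-fold, 4.59 to 11.3) and 77.6 against 13.1 CPM (5.91-fold, 2.42 to 15.8). Tshz1 was 2.70-fold (1.68 to 4.59), 3.90-fold (2.89 to 5.33) and 12.6-fold (8.98 to 17.9) higher in the same order.

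Tox3, Isl1 and Pou3f1 kept their direction in each class as well. Tox3 was 2.78-fold (2.18 to 3.60), 2.41-fold (2.02 to 2.89) and 3.08-fold (1.79 to 5.33) higher. Isl1 was lower with ratios of 0.0500 (0.0302 to 0.0792), 0.183 (0.137 to 0.240) and 0.238 (0.164 to 0.337). Pou3f1 was lower with ratios of 0.0598 (0.0427 to 0.0823), 0.156 (0.129 to 0.187) and 0.198 (0.150 to 0.257). Of the direct-pathway genes above 20 CPM, 3 of 6 were at least 2-fold lower in the Mki67 class and 4 of 5 in the Ccnd2 class. Prc1 and Top2a behaved differently, being 3.45-fold (2.57 to 4.73) and 2.47-fold (2.13 to 2.88) higher in the Mki67 class but not beyond counting error in the Ccnd2 class (1.22-fold, 0.519 to 2.85, and 1.38-fold, 0.959 to 1.99).

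Among the neuroblasts themselves the levels changed with class. Tshz1 went from 166 CPM in cells with Mki67 through 251 CPM in cells with Ccnd2 alone to 885 CPM in cells with neither, 5.32-fold (4.33 to 6.55) from the first to the last. Foxp2 stood at 203, 190 and 712 CPM (3.51-fold, 2.84 to 4.32), and Pbx3, a TALE homeodomain factor, at 445, 444 and 1474 CPM (3.31-fold, 2.87 to 3.82). In the negative cells Tshz1 stayed at 61.6, 64.3 and 70.5 CPM. Tshz1 was found in 51.6%, 51.3% and 57.5% of the neuroblasts of these classes before thinning, at a median of 8513, 6295 and 5500.5 UMIs per cell. At equal UMIs its shares were 29.1% (21.4 to 37.9), 40.4% (31.3 to 49.9) and 53.8% (37.2 to 69.9).

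Etv1 ran the other way, at 184, 196 and 77.6 CPM (0.421 from the first to the last class, 0.241 to 0.691). The last class held 17 Etv1 UMIs in 7 of 40 cells, and 1 cell gave 29.4% of them. Sp8 stood at 259, 305 and 173 CPM (0.670, 0.465 to 0.942) and Pax6 at 149, 105 and 411 CPM (2.75-fold, 2.11 to 3.58), both as genes that chose the cells. Sp9 (671, 897 and 365 CPM), Tox3 (640, 503 and 141 CPM), Vax1 (53.9, 78.2 and 4.56 CPM) and Prox1 (48.5, 58.0 and 9.13 CPM) were lowest in cells with neither cycle gene. Ina, an intermediate filament of maturing neurons, went from 42.2 to 680 CPM and the microtubule protein Mapt from 39.5 to 484 CPM across the same classes. Nefm, another neurofilament gene, went down instead, at 360, 551 and 59.3 CPM (0.165, 0.0869 to 0.285).

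**Figure D3:**
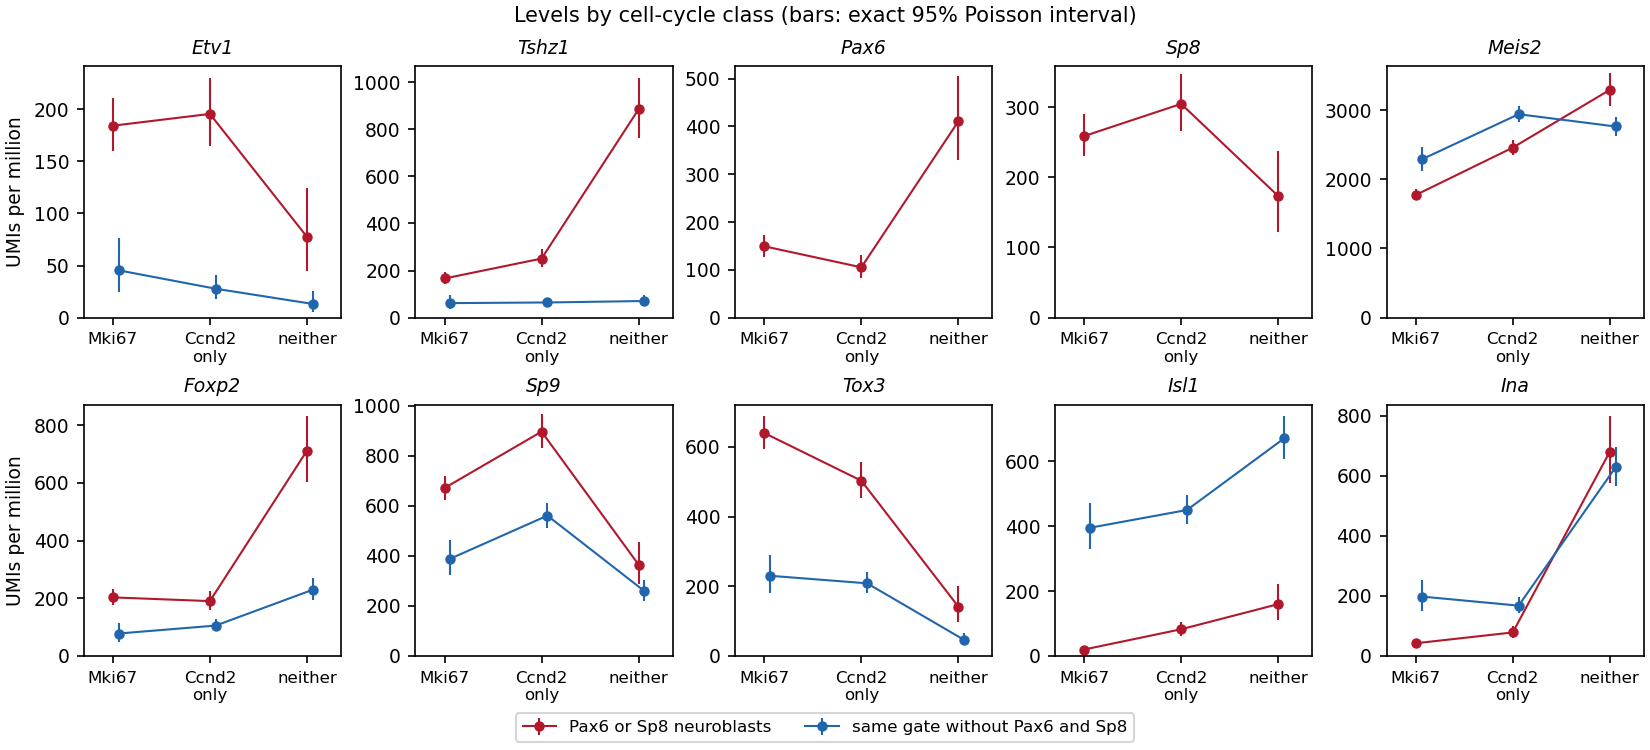
Levels of 10 genes (CPM, linear axis from 0) in LGE cells with Mki67, with Ccnd2 only and with neither, for the Pax6 or Sp8 neuroblasts (128, 115 and 40 cells) and the Pax6/Sp8-negative cells (43, 151 and 108 cells; Pax6 and Sp8 are 0 there by the rule), with exact 95% Poisson intervals. Among the neuroblasts, Tshz1, Foxp2, Pax6 and Ina are highest in cells with neither cycle gene, and Etv1, Sp9 and Tox3 are lowest there.

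Several genes of neuronal maturation were lower in the neuroblasts than in the negative cells, and the share of dividing cells was larger, as given above. Of 14 such genes above 20 CPM, 5 were at least 2-fold lower and none higher (median log2 ratio -0.57), with Mapt at 110 against 304 CPM (ratio 0.362, 0.309 to 0.423), Ina at 122.5 against 327 CPM (0.375, 0.322 to 0.435) and Syt1, a synaptic vesicle calcium sensor, at 33.3 against 111.5 CPM (0.298, 0.224 to 0.394). Within the Mki67 class 6 of 14 were at least 2-fold lower (median log2 ratio -0.61), and within the Ccnd2 class 1 of 13, which was Ina. In cells with neither cycle gene Ina stood at 680 CPM in the neuroblasts and 628 CPM in the negative cells (1.08-fold, 0.890 to 1.31). Nefm, on the same list, ran the other way without passing 2-fold. Before thinning it was found in 59.7% of the neuroblasts and 39.7% of the negative cells. Tubb3, a neuronal tubulin, was found in all 283 cells.

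Levels among the neuroblasts differed by which of the rule's genes were detected. This split was near the limit of detection, since 29 of the 44 cells with Pax6 alone and 72 of the 146 with Sp8 alone held 1 UMI. Cells with Pax6 alone carried more RNA of several maturation genes and of some striatal genes. Ina stood at 511 CPM in the 44 cells with Pax6 alone, 101 CPM in the 93 cells with both and 29.7 CPM in the 146 cells with Sp8 alone, and Mapt at 300, 113 and 54.5 CPM. Tshz2 stood at 247, 6.41 and 22.8 CPM and Isl1 at 130, 3.85 and 77.2 CPM in the same order. Of the cells with Pax6 alone, 40.9% (26.3 to 56.8) held neither cycle gene, against 15.1% (8.48 to 24.0) of cells with both and 5.48% (2.40 to 10.5) of cells with Sp8 alone. The part of missed detection and of cycle class in these levels was not tested.

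Few cells stood behind the Isl1 and Tshz2 values. Isl1 was found in 13 of 44 cells with Pax6 alone, 3 of 93 with both and 14 of 146 with Sp8 alone, where 1 cell gave 28.2% of its UMIs, and Tshz2 in 14, 5 and 13 cells. Between Sp8-only and Pax6-only cells, 311 of 7114 genes (4.37%) were at least 2-fold higher and 646 (9.08%) at least 2-fold lower in the Sp8-only cells. These sums rested on 1010077 and 283641 UMIs. Of the 15 neuronal maturation genes above 20 CPM, 8 were at least 2-fold lower in the Sp8-only cells. Of 6 direct-pathway genes above 20 CPM, 3 were at least 2-fold lower there (Zfp503, Mef2c and Nrgn), and Isl1 was not among them (ratio 0.592, 0.395 to 0.901).

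Cells with both genes carried the most Etv1 and Tshz1. Etv1 stood at 81.1 CPM with Pax6 alone, 222 CPM with both and 169 CPM with Sp8 alone, and cells with both exceeded those with Sp8 alone by 1.31-fold (1.05 to 1.63) and those with Pax6 alone by 2.74-fold (1.76 to 4.43). Tshz1 stood at 183, 385 and 211 CPM, with cells with both above Sp8-only cells by 1.82-fold (1.53 to 2.18) while Sp8-only and Pax6-only cells did not differ beyond counting error (1.15-fold, 0.846 to 1.59). Cells with both also had the deepest counts (median 7875 UMIs against 6482.5 and 6041.5) and the largest share with Mki67 after thinning (48.9%, against 31.0% and 27.9%), and the part of depth in these differences was not tested. Top2a, a mitotic topoisomerase, was highest in them (1251 against 713 and 427 CPM), whereas Mcm2, a replication helicase subunit, was lowest (61.5 against 176 and 116 CPM).

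**Figure D4:**
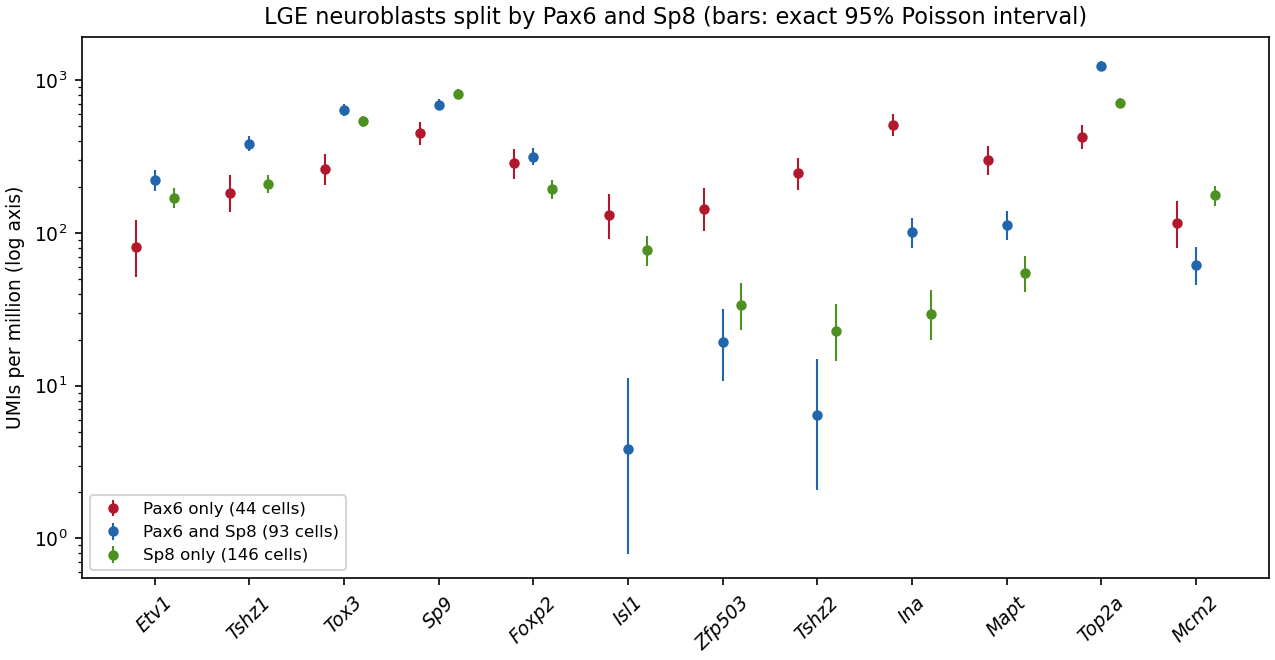
Levels of 12 genes (CPM, log axis) in LGE neuroblasts with Pax6 alone (44 cells), with Pax6 and Sp8 (93 cells) and with Sp8 alone (146 cells), with exact 95% Poisson intervals. Ina, Mapt, Tshz2 and Zfp503 are highest with Pax6 alone, and Etv1, Tshz1, Tox3 and Top2a are highest with both.

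Etv1 and Tshz1 were not found in the same cells more often than apart. Tshz1 was detected in 52.3% of the 153 cells with Etv1 and 52.3% of the 130 cells without it, and its level was lower in the cells with Etv1 (213 against 356 CPM, interval of the ratio 0.506 to 0.710). Isl1 stood at 14.8 CPM in cells with Etv1 against 116 CPM in the rest (ratio 0.128, 0.0726 to 0.212) and Zfp503 at 10.7 against 89.5 CPM (ratio 0.120, 0.0609 to 0.217). Higher with Etv1 were Tox3 (645 against 387 CPM, 1.67-fold, 1.46 to 1.90), Prox1 (57.7 against 33.7 CPM, 1.71-fold, 1.09 to 2.74) and Nfib (236 against 155 CPM, 1.52-fold, 1.24 to 1.89). The cells with Etv1 were deeper (median 7564 against 6083 UMIs) and had more Mki67 (382 against 230 CPM), and the part of either in these ratios was not tested.

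The 366 cells left out through Six3 differed from the neuroblasts by 2-fold in few genes. There were 27 of 6633 genes at least 2-fold higher in the neuroblasts (0.407%) and 64 at least 2-fold lower (0.965%). Tshz1 was alike in level (272.5 against 257 CPM, 1.06-fold, 0.948 to 1.18), and Isl1 was as low there (49.3 CPM, 1.16-fold, 0.898 to 1.48). Of the listed factors of the dorsal LGE and of olfactory interneurons, 15 reached 20 CPM here. None of them passed 2-fold either way (median log2 ratio 0.02), Vax1, Sall1 and Sp9 included. After thinning, Vax1 was found in 13.6% of the neuroblasts and 14.8% of the Six3 cells, and Sp9 in 78.9% and 77.6%. Etv1 was higher in the neuroblasts (177 against 65.6 CPM, 2.70-fold, 2.26 to 3.23), as were Prox1 (2.30-fold, 1.66 to 3.22) and the axon guidance receptor Robo2 (121.5 against 48.2 CPM, 2.52-fold, 2.04 to 3.12). Lower were Foxp1 (124 against 308.5 CPM, ratio 0.402, 0.348 to 0.462), Zfp503 (0.411, 0.321 to 0.521) and Aldh1a3 (0.208, 0.141 to 0.297). Mki67 was present in 55.2% (49.9 to 60.4) of the Six3 cells, above the 45.2% of the neuroblasts.

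The CGE library held 426 cells of the same gate, and these differed from the LGE neuroblasts in Etv1, Tshz1, Meis2 and the CGE interneuron genes. Of 7026 genes, 486 (6.92%) were at least 2-fold higher and 488 (6.95%) at least 2-fold lower in the CGE cells. Region and library coincide here, so their parts cannot be told apart. Pax6 (218.5 CPM) and Sp8 (233 CPM) chose both sets of cells. Etv1 stood at 3.33 CPM in the CGE cells against 177 CPM in the LGE (53.1-fold lower, ratio 0.0188, 0.00895 to 0.0350), Tshz1 at 77.6 against 272.5 CPM (ratio 0.285, 0.243 to 0.332) and Meis2 at 653 against 2180 CPM (ratio 0.299, 0.284 to 0.316). After thinning, Etv1 was found in 3 of 416 CGE cells (0.721%, 0.149 to 2.09), so 3 of the 5 dorsal LGE markers were at least 2-fold lower in the CGE cells and the 2 others belonged to the rule.

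CGE interneuron genes ran the other way. All 9 listed genes that reached 20 CPM in either set were at least 2-fold higher in the CGE cells (median log2 ratio 2.86). Nr2f2, Cxcl14, Npas1, Adarb2 and Nfix were under 20 CPM in the LGE cells. They entered through the CGE cells and could not be called lower there, so the count and the median were partly set by the floor. Nr2f1 stood at 1508 against 42.9 CPM (35.1-fold, 28.5 to 43.8), Prox1 at 280.5 against 47.7 CPM (5.88-fold, 4.77 to 7.31) and Nfib at 827.5 against 202 CPM (4.10-fold, 3.69 to 4.55). Nr2f2 stood at 842 CPM in the CGE cells, against 0.482 CPM (1 UMI) in the LGE cells (ratio 1746, 313 to 68975). Epha5 (977 against 97.9 CPM) and Nrp2, a semaphorin receptor (87.9 against 3.38 CPM), were higher too, while Vax1 was lower (6.66 against 57.4 CPM).

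The CGE cells were also less often dividing: 10.8% (8.01 to 14.1) held Mki67 and 59.9% (55.0 to 64.5) neither cycle gene, against 45.2% and 14.1% of the LGE cells. Ccnd2 stood at 239.5 CPM there against 2509 CPM. Within each library the Pax6 or Sp8 cells can be set beside the cells of the same gate without them. In the CGE these were 548 cells, and 50 of 6827 genes (0.732%) were at least 2-fold higher and 45 (0.659%) at least 2-fold lower in the cells with Pax6 or Sp8. In the CGE Tshz1 was 2.00-fold (1.61 to 2.50) higher in cells with Pax6 or Sp8 and Etv1 lower (3.33 against 15.6 CPM, ratio 0.213, 0.0969 to 0.423), where Etv1 had been 6.86-fold higher in the LGE. Both CGE levels of Etv1 were under the floor of 20 CPM.

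**Figure D5:**
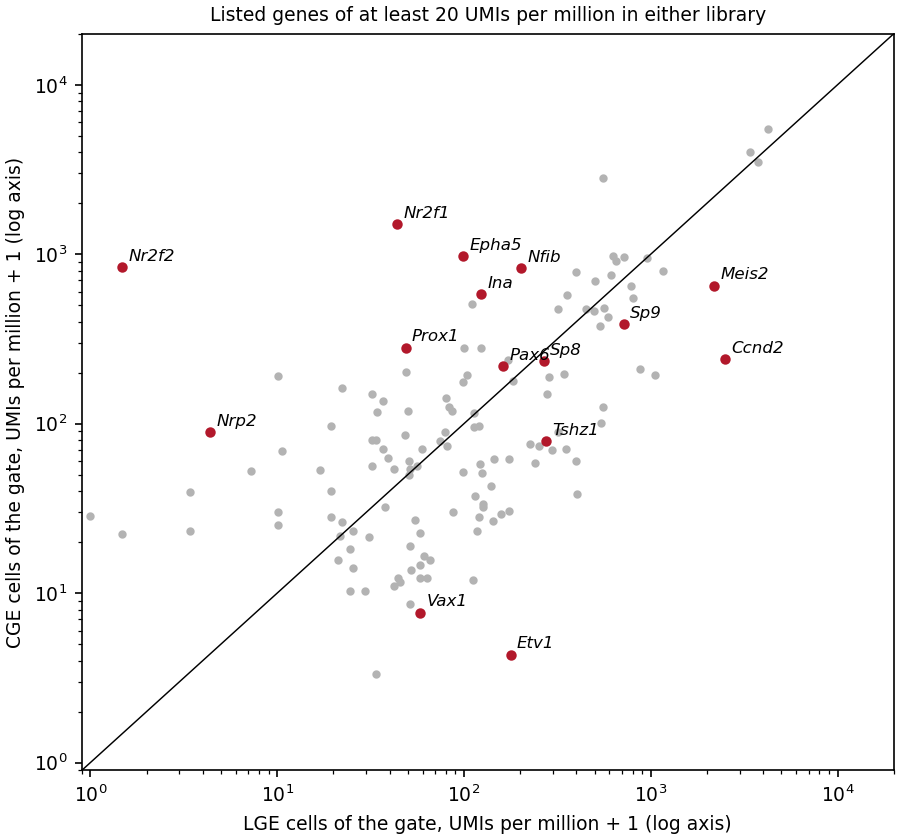
Levels of the listed genes that reached 20 CPM in either set, in LGE cells (x axis) and CGE cells (y axis) of the same gate, as CPM + 1 on log axes; the line marks equal levels. Nr2f1, Nr2f2, Prox1 and Epha5 lie above the line, and Etv1, Tshz1, Meis2, Vax1 and Ccnd2 lie below it.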

How the data were processed

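Single-cell libraries of 4 forebrain regions were analysed, 1 per region. The deposited files hold UMI counts per gene and barcode, which the authors made with Cell Ranger on mm10 (version 3.0.0 per the labels, 3.0.2 per the file headers), with no normalization. The labels describe a sort for live nucleated cells and the study's methods describe counting without one for wild-type tissue; which was used was not settled. The strand setting of the counting was not given in the sources used here. The limits on genes, mitochondrial and globin UMIs were applied to all 43346 features, and UMIs were summed over cells of a group. Folds and calls used the ratio of CPM and a floor of 20 CPM in either group, and log2 ratios used log2(CPM + 1). A call is a 2-fold difference and carries no test. A gene under the floor in a group could not be called higher in that group, which bears on all counts and medians of lists. Gene positions came from GENCODE by gene ID. Shares were also computed with each cell thinned to 3000 UMIs. Doublets were not removed: a score from simulated doublets in 30 components, at a rate of 0.8% per 1000 barcodes, marked 258 of 4810 LGE cells (5.36%), 12 of the 283 neuroblasts (4.24%) and 5 of the 302 Pax6/Sp8-negative cells (1.66%), and removing them is among the settings in the closing section. The text names the marker and rule genes, in each of 21 lists up to 4 genes of the largest log2 ratio among those of at least 20 CPM, and more where a result turns on them, and the 10 highest and 10 lowest genes against the negative cells among genes of at least 50 CPM in the higher group whose interval lies outside 1. The 10 highest against the other high-Dcx cells were added after the data were seen. The members and lists were chosen with earlier results of these data known. Some genes are not reported here. Scripts were tested on simulated data. Python 3.11.15, numpy 2.4.6, scipy 1.17.1, pandas 2.3.3, scikit-learn 1.9.0 and matplotlib 3.10.9 were used.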

Additional observations from a re-analysis of the deposited data

Results flagged for a closer look

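Meis2 was singled out because it went opposite ways within the LGE and CGE libraries. Etv1 also went opposite ways, as given with the CGE cells above, so this was not particular to Meis2. Both CGE levels of Etv1 were under the floor of 20 CPM. Among LGE cells of the gate Meis2 was lower in cells with Pax6 or Sp8 than in cells without them (ratio 0.786, 95% interval 0.755 to 0.819). Among CGE cells Meis2 was higher (ratio 1.46, 1.36 to 1.56), a difference of -0.89 between the log2 ratios. Each region had 1 library, so this difference was not tested, and region and library cannot be told apart. Cells with Mki67 and Ccnd2 also took unlike shares in the groups compared, and the part of that in the difference was not tested.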

How the results depend on the processing

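Of 1440 log2 ratios of 60 named genes under 12 settings, 1147 moved by less than the counting error of the reported value, 286 moved further and 7 of those past 2-fold turned sign. All 7 turned where only cells with Mki67 and Ccnd2 below 0.5 were used: against the other high-Dcx cells Tshz2 (0.76) and Ina (0.039), and against the Pax6/Sp8-negative cells Ccnb1 (-0.91), Cdk1 (-1.34), Top2a (-0.50), Ina (0.11) and Gria1 (0.52). That setting kept 40 neuroblasts (5.13% of the cells), with 308 genes higher and 464 lower against the other cells and 468 lower against the negative cells. Thinning every cell to 3000 UMIs before the gate gave 10.9% of cells in the gate, 20.9% of them with both Pax6 and Sp8, 36.8% with Mki67 and 202 genes higher against the other cells. A Dcx limit of 1.0 gave 53.2% with Mki67, and a limit of 2.0 gave 31.0%, with 39.4% holding both genes. Asking for at least 2 UMIs of Pax6 and Sp8 gave 8.28% of cells in the gate and 51.1% with both. Keeping cells with Six3, a setting chosen after seeing the data, gave 29.5% in the gate, 26.8% with both, 276 genes higher against the other cells, and 96 higher and 37 lower against the negative cells. The counts of genes past 2-fold followed the floor: 47 higher and 101 lower against the other cells and 164 and 84 against the negative cells at 50 CPM, and 1635, 5109, 2414 and 2470 with no floor, while a pseudocount of 10 CPM gave 32 and 137 against the other cells and 108 lower against the negative cells. No paired analysis was possible because each region had 1 library. Counting intervals leave out the spread between embryos and preparations, and 101 cells rested on 1 UMI of Pax6 or Sp8. The kit version of each library was not given in the sources used here.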
